A study of Mus musculus with 36 samples.

Results

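The 40 genes described here are the endothelial, pericyte and other vascular genes of a mouse hippocampal RNA-seq study, 40 of the 55421 genes in its count table. They were chosen by name: 30 are endothelial genes and 10 are mural genes, that is, genes of pericytes and vascular smooth muscle. Of the 40, 39 passed the filter on low counts. Esm1 did not, at 0.0846 ± 0.0923 CPM (read counts scaled to the library's total, mean ± SD, n = 4) in sham slices of vehicle-treated wild-type mice.

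The study gave BD10-2 (PTX-BD10-2 in the labels), which partially activates TrkB and TrkC, receptors of neurotrophins, or vehicle by oral gavage for 3 months, while the mice aged from 13 to 16 months. It used wild-type C57BL/6 mice and Thy1-hAPPLond/Swe line 41 mice, called T41B in the labels, in which the Thy1 promoter drives human amyloid precursor protein with the London and Swedish mutations. Right hippocampal slices then received theta burst stimulation, in 3 trains with 10 bursts to a train and 4 stimuli to a burst (100 Hz within and 200 ms between bursts), or an equally long sham procedure, and were frozen. The 32 samples formed 8 groups: wild-type vehicle (4 sham and 4 stimulated slices), T41B vehicle (4 and 4), wild-type BD10-2 (3 and 3) and T41B BD10-2 (5 and 5). They came from 18 mice, 14 of which gave both a sham and a stimulated slice. All mice were aged, and the slices had no blood flow. The Thy1 promoter directs the transgene mainly to neurons and not to vessels.

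Endothelial cells line the vessels of the brain and form the blood-brain barrier. Claudin 5, occludin and VE-cadherin seal their contacts, transporters such as Mfsd2a and the Slco family carry or hold back solutes, and ETS and SOX transcription factors maintain their identity. Pericytes and smooth muscle cells, together called mural cells, wrap these vessels, and platelet-derived growth factor from the endothelium recruits them through Pdgfrb. Angiopoietin 2 is released by activated endothelium and competes with angiopoietin 1 for the receptor Tek.

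RefSeq promoters (build GRCm38.p6) were at hand for 24 of the 40 genes. The 4 printed belong to genes on which the results turn: Erg and Adamts9, called higher after stimulation in every comparison, Slco1a4, called lower in every comparison, and the mural gene Notch3. Each run is the 250 bases before the annotated start, 5′ to 3′ on the gene's own strand, which is the minus strand in all 4. Capitals mark a match, on either strand, to AGGAAG, here called the ETS core, since the ETS family to which Erg belongs binds it, or to GGGCGG, the GC box. The Erg window lies at chr16:95586594-95586843 and belongs to the most upstream of its 3 annotated starts. The windows of Adamts9, Slco1a4 and Notch3 lie at chr6:92943535-92943784, chr6:141856221-141856470 and chr17:32166891-32167140.
Erg: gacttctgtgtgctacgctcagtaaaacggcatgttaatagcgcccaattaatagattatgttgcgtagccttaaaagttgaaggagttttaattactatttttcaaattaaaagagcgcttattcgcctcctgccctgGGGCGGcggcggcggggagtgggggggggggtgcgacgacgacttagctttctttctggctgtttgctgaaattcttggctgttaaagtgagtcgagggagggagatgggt
Adamts9: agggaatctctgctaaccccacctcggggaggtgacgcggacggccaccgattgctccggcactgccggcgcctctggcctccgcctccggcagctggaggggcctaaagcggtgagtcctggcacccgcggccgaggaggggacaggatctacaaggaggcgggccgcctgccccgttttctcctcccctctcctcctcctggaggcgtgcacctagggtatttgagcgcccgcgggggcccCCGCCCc
Slco1a4: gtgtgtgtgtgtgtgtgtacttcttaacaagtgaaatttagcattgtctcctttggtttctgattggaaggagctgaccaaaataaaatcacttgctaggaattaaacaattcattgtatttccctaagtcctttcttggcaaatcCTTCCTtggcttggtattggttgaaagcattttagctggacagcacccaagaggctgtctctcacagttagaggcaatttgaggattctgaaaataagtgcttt
Notch3: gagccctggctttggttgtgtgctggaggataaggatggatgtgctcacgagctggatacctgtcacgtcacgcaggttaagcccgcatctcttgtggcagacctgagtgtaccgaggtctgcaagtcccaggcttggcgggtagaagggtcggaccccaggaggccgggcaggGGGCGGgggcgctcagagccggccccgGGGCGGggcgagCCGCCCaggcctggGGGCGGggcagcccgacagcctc
In these windows the ETS core was found 1 time in Slco1a4 and was not found in the other 3, and the GC box was found 1 time each in Erg and Adamts9, 4 times in Notch3 and not in Slco1a4. The 24 members have 28 promoter windows, and the ETS core was present in 10 of them (35.7%), another start of Erg among them, and in 29.5% of all 32851 windows of this length. The GC box was present in 11 of 28 (39.3%) and in 32.7%. Neither motif contains the other. A match describes the letters only.

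Depth was 11597555 to 28125842 expected counts per library, with a median of 18082415. Thy1, whose promoter drives the transgene, was at 253 to 403 CPM in the 16 wild-type libraries and at 918 to 2500 CPM in the 20 T41B libraries. Hippocampal neuron markers summed to 3890 to 6060 CPM per slice. The endothelial markers Cldn5, Flt1, Pecam1, Cdh5, Tie1 and Erg summed to 27.6 to 257 CPM, the 5 pericyte markers to 37.9 to 144 CPM and the 3 smooth muscle markers to 3.75 to 17.5 CPM, with none of them at 0 in any slice. Markers of blood myeloid cells summed to 0.397 CPM or less. In 4 cases 2 libraries carried the same mouse and stimulation labels and were added together as 1 slice, though the labels used here do not say whether both came from 1 slice. Over the members they differed by a median of 0.27 to 0.72 on the log2 scale, and Flt1 was 36.7 CPM in one and 82.1 CPM in the other sham library of Mouse1565.

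Some slices stood apart. The stimulated slice of wild-type vehicle Mouse1524 was the lowest of its group in 34 of the 40 members, at a median ratio of 0.308 to the mean of the other slices over 38 members. The sham slice of T41B vehicle Mouse1553 was the lowest of its group in 30 of 40, at a median ratio of 0.562 over 39. Choroid plexus markers (9 genes, Ttr among them) summed to 115 to 1220 CPM in 6 slices, namely the stimulated slices of wild-type Mouse1509 and Mouse1513 and both slices of T41B Mouse1551 and Mouse1553, all given vehicle. In the other 26 slices they summed to 14.4 to 29.9 CPM. A member's call that was lost or gained without the 2 low slices or without the 6 choroid-high slices is given with its value without them. Where the 6 slices are left out, the stimulated wild-type vehicle group holds only Mouse1522 and Mouse1524, and Mouse1510 and Mouse1579 are left of the T41B vehicle mice.

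Levels of different genes are comparable only per length of exon sequence. In sham slices of wild-type vehicle mice the level per kilobase was 20.1 ± 1.64 CPM (SD, n = 4) for Tjp1, a tight junction scaffold that is not limited to vessels, 13.4 ± 1.07 for Vtn, 12.3 ± 1.19 for Rgs5 and 10.4 ± 1.09 for Cldn5. On the same scale Cdh5 stood at 3.7 ± 0.636, and the lowest members were Angpt2 at 0.226 ± 0.107 and Esm1 at 0.0403 ± 0.044. Vtn and Rgs5, neighbours in that order, did not differ beyond their spread. Whether reads were counted by strand is not given in the sources used here, and exons of 8 members overlap 1 or more genes on the opposite strand. The overlap covers 67.9% of the exon bases of Tagln, 32.3% of Nos3, 16.8% of Sox17, 12% of Adamts9 and 10.1% of Abcb1a, and at most 6.0% for Notch3, Abcc9 and Eng. Ly6c1 and Ly6a belong to a family of near-identical genes, so their counts are uncertain.

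After stimulation some endothelial members rose and others fell. In all 4 comparisons Cdh5, Erg, Bcl6b, Angpt2 and Adamts9 rose and Slco1a4 fell, while Flt1, Kdr, Tie1, Cldn5 and 11 other tested endothelial genes were called in none. Of the 10 mural members 0 were called higher in any comparison, where 6.29% to 13.3% of all genes were, and Vtn and Notch3 fell in 3 of the 4. Mural genes outside these 10, such as Mcam and Ednra described further on, were called higher, and the classes were not tested against each other. No member was called in opposite directions in different comparisons. In bulk slices, fewer cells of a type and less RNA per cell cannot be told apart.

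A member was called when its adjusted p in the fit over all 19478 genes kept was under 0.05, and background means the share of those genes called the same way. In wild-type vehicle mice 6 of 39 members were called higher and 8 lower, against a background of 8.21% higher and 4.1% lower. In T41B vehicle mice the counts were 10 higher and 1 lower, against 11.7% and 9.83%. In wild-type BD10-2 mice they were 5 and 4, against 6.29% and 2.58%, and in T41B BD10-2 mice 10 and 7, against 13.3% and 9.52%. Among the 29 endothelial genes tested the calls were 6 higher and 4 lower, 10 and 1, 5 and 2, and 10 and 3, in the same order of comparisons. Among the 10 mural genes, 0 were called higher in each, and 4, 0, 2 and 4 were called lower. The median log2 fold change of the endothelial genes was 0.01, 0.40, 0.11 and 0.23, that of the mural genes -0.48, -0.02, -0.68 and -0.36, and that of all genes -0.01, -0.05, -0.01 and -0.04. The vehicle medians include the low slices. On the log2(CPM + 1) scale, centred per gene over all slices, Mouse1524 stimulated averaged -1.08 over endothelial and -0.97 over mural members. The other stimulated wild-type vehicle slices averaged -0.12 to 0.53 and -0.34 to 0.12. Wild-type vehicle sham slices averaged -0.21 to -0.03 and 0.07 to 0.24. Mouse1553 sham averaged -0.74 and -0.35, and the other T41B vehicle sham slices -0.27 to -0.02 and -0.16 to 0.27. The 5 members called higher in every comparison compare with 869 of all genes (4.46%), and the 1 called lower in every comparison with 198 (1.02%).

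These counts changed when single mice or the slices that stood apart were left out. Without Mouse1509 the wild-type vehicle counts were 1 higher and 8 lower, against 4.85% and 1.53% of all genes in the same fit, and without Mouse1513 they were 3 and 6, against 5.73% and 1.88%. Without Mouse1565 the wild-type BD10-2 counts were 2 and 2, against 2.98% and 0.843%. Without the 6 slices high in choroid plexus markers the wild-type vehicle counts became 1 higher and 14 lower, against 7.67% and 5.35%, and the T41B vehicle counts 8 and 1, against 4.45% and 1.58%. Without the 2 slices low in vascular transcripts they were 8 and 6, against 7.69% and 3.1%, and 10 and 3, against 12.1% and 7.07%. With only the groups compared in the fit, 16 members were called in wild-type BD10-2 mice, where the share of all genes called went from 6.29% to 7.33% higher and from 2.58% to 4.06% lower, the 7 added being Tek, Pecam1, Slco1c1, Abcb1a, Pdgfb, Nos3 and Pdgfrb. Choroid plexus markers were themselves called higher in 9 of 9 in the wild-type vehicle comparison and in 0 of 9 in the others. Their part in the members' values was examined only by leaving those slices out. In that setting only Mouse1522 and Mouse1524 remain in the stimulated wild-type vehicle group. It therefore cannot tell choroid plexus from the low slice of Mouse1524, and this part was not tested. Microglial markers were called lower with stimulation in 7, 7, 7 and 8 of 8, their summed level being 224 to 286 CPM in sham and 100.0 to 151 CPM in stimulated slices of wild-type vehicle mice. Their part in the vascular values was not tested.

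**Figure D1:**
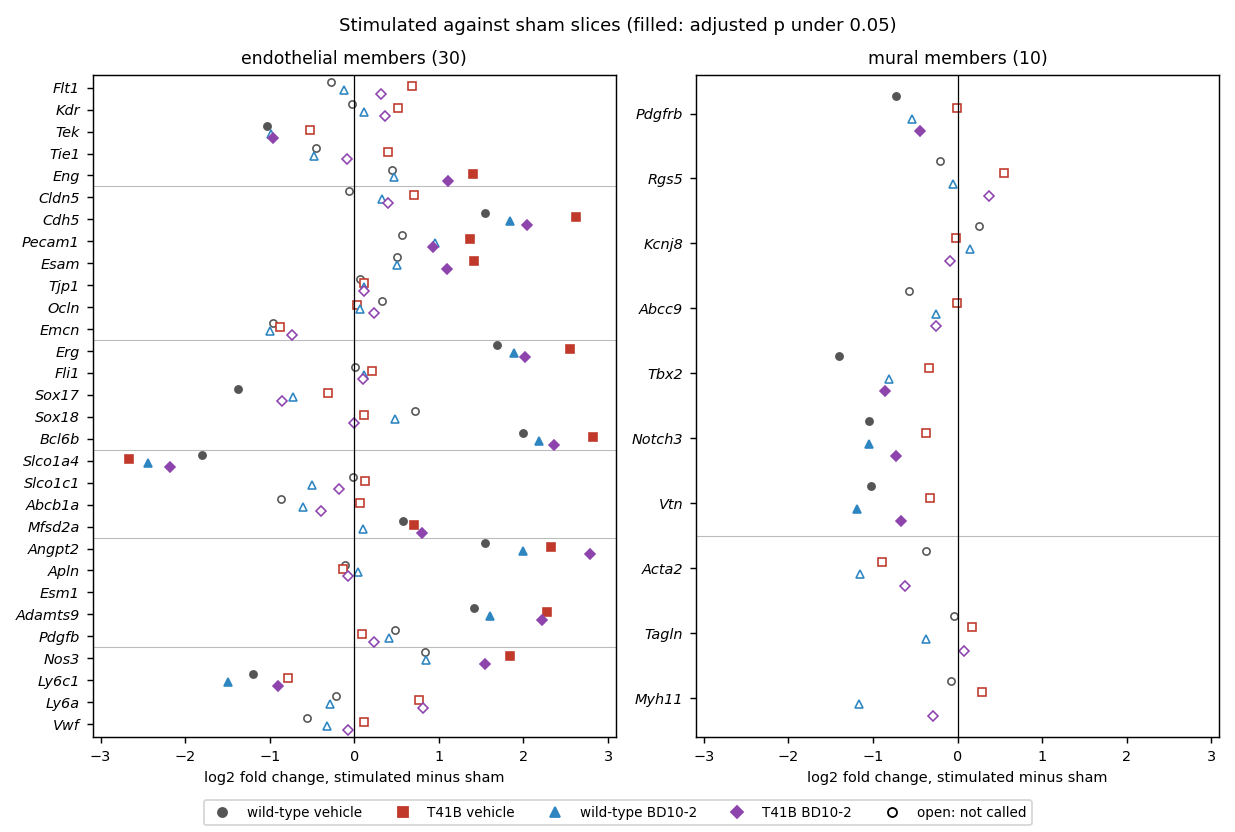
Log2 fold change of each member, stimulated minus sham (horizontal axis), for the 30 endothelial genes (left) and the 10 mural genes (right), with 1 symbol per comparison and filled symbols for adjusted p under 0.05. Cdh5, Erg, Bcl6b, Angpt2 and Adamts9 are filled to the right of 0 in all 4 comparisons and Slco1a4 to the left, and no mural gene is filled to the right. Esm1 was not tested.

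Values per mouse are given in CPM and in order of mouse number: Mouse1509, Mouse1513, Mouse1522 and Mouse1524 for wild-type vehicle, Mouse1510, Mouse1551, Mouse1553 and Mouse1579 for T41B vehicle, Mouse1565, Mouse1571 and Mouse1590 (sham) or Mouse1586 (stimulated) for wild-type BD10-2, and Mouse1557, Mouse1563, Mouse1564, Mouse1570 and Mouse1592 (sham) or Mouse1563, Mouse1564, Mouse1570, Mouse1572 and Mouse1592 (stimulated) for T41B BD10-2. Fold changes are on the log2 scale with their standard errors, and adjusted p-values are from edgeR's quasi-likelihood test with Benjamini-Hochberg adjustment over all genes kept. Where several differences follow each other, the value in parentheses after each is its adjusted p. The 2 slices of each of the 14 mice with both carried the same batch label.

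Of the growth factor receptors, Flt1 and Kdr, the receptors for vascular endothelial growth factor, and Tie1 were called in no comparison. Flt1 was 53.1 ± 6.97 CPM in sham and 43.6 ± 29.4 in stimulated slices of wild-type vehicle mice (SD, n = 4 each), a log2 difference of -0.28 ± 0.39, and 0.68 ± 0.39 in T41B vehicle mice. Tek, the angiopoietin receptor, fell in wild-type vehicle (-1.03 ± 0.34, adjusted p = 0.0454) and in T41B BD10-2 mice (-0.96 ± 0.31, adjusted p = 0.0228). It was at a lower level after stimulation in each of the 14 mice with both slices. Its wild-type vehicle difference was -1.15 (adjusted p = 0.0841) without Mouse1513, -0.94 (adjusted p = 0.151) without Mouse1522 and -0.76 (adjusted p = 0.135) without Mouse1524. That difference was -0.71 (adjusted p = 0.097) without the 2 low slices, -1.03 (adjusted p = 0.0593) with the deeper libraries, -1.01 (adjusted p = 0.0524) with no filter on low counts and -1.02 (adjusted p = 0.195) with only the groups compared in the fit. Its T41B BD10-2 difference was -0.87 (adjusted p = 0.0786) without Mouse1563, -0.85 (adjusted p = 0.0881) without Mouse1570, -0.90 (adjusted p = 0.0551) without Mouse1572 and -0.87 (adjusted p = 0.0537) with the deeper libraries. Without the choroid-high slices Flt1 and Tie1 passed in wild-type vehicle mice, at -1.25 (adjusted p = 0.0421) and -1.61 (adjusted p = 0.0141). The receptors gave 0 higher and 1 lower of 5 in wild-type vehicle, 1 and 0 in T41B vehicle, 0 and 0 in wild-type BD10-2, and 1 and 1 in T41B BD10-2 mice. The backgrounds were 8.21%, 11.7%, 6.29% and 13.3% higher and 4.1%, 9.83%, 2.58% and 9.52% lower, so that 0 or 1 of 5 is no result about the receptors.

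Eng, endoglin, a coreceptor for transforming growth factor beta (chromosome 2, 32646595 to 32682669, plus strand), rose in T41B mice. Eng in T41B vehicle mice was at 13.6, 13.5, 8.82 and 11.3 CPM in sham and 35.6, 35.6, 30 and 23.6 in stimulated slices. Eng in T41B BD10-2 mice was at 14, 17.3, 16.9, 21 and 14.2 CPM in sham and 35.6, 51.3, 38.6, 38.3 and 15.8 in stimulated slices. In T41B vehicle mice every stimulated slice lay above every sham slice, and in T41B BD10-2 mice the stimulated slice of Mouse1592 fell among the sham values. Eng in wild-type vehicle mice was at 11.6, 9.3, 14.7 and 11.6 CPM in sham and 26.9, 16.4, 14.3 and 6.15 in stimulated slices. Eng in wild-type BD10-2 mice was at 14.2, 12.3 and 12.6 CPM in sham and 15.4, 22.6 and 16.5 in stimulated slices. Wild-type vehicle groups overlapped and wild-type BD10-2 groups did not. Log2 differences of Eng were 1.40 ± 0.29 (adjusted p = 0.000685) and 1.11 ± 0.25 (0.00166) in T41B mice, and 0.44 ± 0.29 (0.358) and 0.47 ± 0.33 (0.432) in wild-type mice. Eng was higher in the stimulated slice of 12 of 14 mice, the exceptions being wild-type vehicle Mouse1522 and Mouse1524. Both T41B calls held without any 1 mouse.

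Of the 7 junction and surface genes, 1, 3, 1 and 3 were called higher in the 4 comparisons, against 8.21%, 11.7%, 6.29% and 13.3% of all genes, and 0 lower. Cdh5, the VE-cadherin of endothelial adherens junctions (chromosome 8, 104101625 to 104144511, plus strand), rose in each. Cdh5 in wild-type vehicle mice was at 16.7, 12.4, 18.6 and 14.6 CPM in sham and 83.3, 48.8, 40.6 and 7.56 in stimulated slices. Cdh5 in T41B vehicle mice was at 18.7, 12.4, 5.26 and 11.7 CPM in sham and 101, 89.1, 51.3 and 52.3 in stimulated slices. Mouse1524 alone went down, and its stimulated value lay under all sham values of wild-type vehicle mice. Cdh5 in wild-type BD10-2 mice was at 17.2, 15.5 and 11.7 CPM in sham and 48.2, 66.1 and 46.2 in stimulated slices. Cdh5 in T41B BD10-2 mice was at 15.6, 20.8, 19, 25.7 and 8.58 CPM in sham and 67.3, 92.9, 86.9, 93 and 27.7 in stimulated slices. Sham and stimulated groups did not overlap in the 3 comparisons other than wild-type vehicle. Log2 differences of Cdh5 were 1.54 ± 0.44 (adjusted p = 0.0204), 2.62 ± 0.46 (8.34e-05), 1.84 ± 0.51 (0.0189) and 2.04 ± 0.40 (0.000247), in the order wild-type vehicle, T41B vehicle, wild-type BD10-2, T41B BD10-2. Each wild-type call was lost in fits that left out 1 mouse, with the difference still positive. In vehicle mice the difference was 1.09 (adjusted p = 0.198) without Mouse1509, 1.41 (adjusted p = 0.103) without Mouse1513, 0.64 (adjusted p = 0.392) without the choroid-high slices and 1.55 (adjusted p = 0.0921) with only the groups compared. In BD10-2 mice it was 2.03 (adjusted p = 0.0847) without Mouse1565, 1.69 (adjusted p = 0.148) without Mouse1571 and 1.70 (adjusted p = 0.102) without Mouse1590. Over all alternatives of the wild-type vehicle value the adjusted p ran from 0.000348 to 0.392, and over those of the wild-type BD10-2 value from 0.000136 to 0.148.

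Cldn5, the claudin of brain endothelial tight junctions, was called in no comparison, though it was higher in the stimulated slice of 13 of 14 mice. Cldn5 in wild-type vehicle mice was at 14.9, 12.5, 16 and 15.5 CPM in sham and 20.8, 14.9, 16.1 and 4.61 in stimulated slices. Cldn5 in T41B vehicle mice was at 16.1, 13.5, 8.72 and 12.5 CPM in sham and 24.9, 28.4, 13 and 16.6 in stimulated slices. Mouse1524 had the lowest stimulated value. Cldn5 in wild-type BD10-2 mice was at 15, 13.5 and 12.6 CPM in sham and 17.8, 20.9 and 13.4 in stimulated slices. Cldn5 in T41B BD10-2 mice was at 13.2, 14.5, 17.4, 27.6 and 13.1 CPM in sham and 14.8, 25.9, 28, 28.6 and 15.5 in stimulated slices. Sham and stimulated values overlapped in all 4 comparisons. Log2 differences of Cldn5 were -0.06 ± 0.31, 0.71 ± 0.31, 0.33 ± 0.35 and 0.40 ± 0.27, with adjusted p from 0.1 in T41B vehicle mice to 0.936 in wild-type vehicle mice. In a paired fit, blocked by mouse (replicate block), the T41B vehicle difference was 0.68 (adjusted p = 0.038), its only call in 12 alternatives.

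Pecam1, an adhesion molecule of the endothelial surface, rose in both T41B comparisons. Pecam1 in T41B vehicle mice was at 13.8, 10.6, 5.79 and 11.6 CPM in sham and 31.3, 31.9, 19.6 and 24.4 in stimulated slices. Pecam1 in T41B BD10-2 mice was at 13, 16.9, 14.7, 19.5 and 8 CPM in sham and 23.4, 36, 29.5, 34 and 14.8 in stimulated slices. The T41B vehicle groups did not overlap, and the T41B BD10-2 groups did. Pecam1 in wild-type vehicle mice was at 14.8, 12.7, 11.9 and 13.4 CPM in sham and 33.3, 23.2, 16 and 4.79 in stimulated slices. Pecam1 in wild-type BD10-2 mice was at 13.4, 12.5 and 10.1 CPM in sham and 22.4, 29.1 and 18.4 in stimulated slices. Wild-type vehicle groups overlapped through Mouse1524, and wild-type BD10-2 groups did not. Log2 differences of Pecam1 were 1.37 ± 0.35 (adjusted p = 0.00503) and 0.93 ± 0.31 (0.0265) in T41B mice, and 0.56 ± 0.35 (0.318) and 0.95 ± 0.39 (0.141) in wild-type mice. The T41B vehicle value was 1.14 (adjusted p = 0.106) without the choroid-high slices, and the T41B BD10-2 value was 0.90 (adjusted p = 0.0621) without Mouse1557, 0.83 (adjusted p = 0.111) without Mouse1564 and 0.85 (adjusted p = 0.0669) without Mouse1572. The wild-type vehicle value was 0.87 (adjusted p = 0.0363) without the slices low in vascular transcripts. Esam, another adhesion molecule, rose in T41B vehicle (1.41 ± 0.28, adjusted p = 0.000437) and T41B BD10-2 mice (1.09 ± 0.25, 0.00139). Without the 2 low slices it also passed in wild-type vehicle mice, at 0.76 (adjusted p = 0.049). Tjp1, Ocln and Emcn passed in no comparison, with Tjp1 between 0.07 and 0.12. Emcn, a surface sialomucin, was at a lower level after stimulation in each of the 14 mice, at -0.74 to -1.0, without passing the test. In the paired fit it did pass in wild-type vehicle mice, at -1.07 (adjusted p = 0.0318), and in T41B vehicle mice, at -0.99 (adjusted p = 0.0298). Without the choroid-high slices its wild-type vehicle value was -1.39 (adjusted p = 0.0348), and with batch as a covariate its T41B BD10-2 value was -0.92 (adjusted p = 0.0427).

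The 5 transcription factors split. Erg, an ETS factor that maintains endothelial identity (chromosome 16, 95359169 to 95586593, minus strand), rose in every comparison. Erg in wild-type vehicle mice was at 3.38, 3.24, 4.59 and 2.66 CPM in sham and 18.1, 12.9, 11 and 2.52 in stimulated slices. Erg in T41B vehicle mice was at 4.63, 2.96, 1.59 and 1.94 CPM in sham and 18.2, 21.4, 11.9 and 13.1 in stimulated slices. Within wild-type vehicle mice the stimulated value of Mouse1524 was under the lowest sham value, and the other 3 stimulated values were above the highest. Erg in wild-type BD10-2 mice was at 3.38, 4.07 and 2.49 CPM in sham and 11.7, 17.2 and 8.36 in stimulated slices. Erg in T41B BD10-2 mice was at 3.45, 3.99, 4.68, 6.43 and 2.22 CPM in sham and 14.9, 19.3, 22, 17.9 and 8.72 in stimulated slices. In these groups, as in T41B vehicle mice, sham and stimulated values did not overlap. Log2 differences of Erg were 1.69 ± 0.40 (adjusted p = 0.00466), 2.55 ± 0.41 (2.67e-05), 1.89 ± 0.45 (0.00615) and 2.02 ± 0.35 (6.2e-05). The wild-type vehicle call was lost without Mouse1509, at 1.34 (adjusted p = 0.0785), and without the choroid-high slices, at 0.99 (adjusted p = 0.152). The wild-type BD10-2 call was lost without Mouse1565, at 1.93 (adjusted p = 0.0639), and without Mouse1571, at 1.73 (adjusted p = 0.072). Over the alternatives of these 2 values the adjusted p ran from 9e-05 to 0.152 and from 0.000638 to 0.072. The printed Erg promoter holds no AGGAAG.

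Bcl6b, a transcriptional repressor enriched in endothelium (chromosome 11, 70224128 to 70229798, minus strand), was at a higher level after stimulation in each of the 14 mice. Bcl6b in wild-type vehicle mice was at 2.67, 1.87, 1.76 and 1.62 CPM in sham and 15, 7.6, 6.78 and 2.09 in stimulated slices. Bcl6b in T41B vehicle mice was at 2.5, 1.14, 0.85 and 1.42 CPM in sham and 15.6, 11.8, 7.04 and 6.64 in stimulated slices. Mouse1524 rose least, and its stimulated value lay among the sham values. Bcl6b in wild-type BD10-2 mice was at 2.36, 2.51 and 1.35 CPM in sham and 10.5, 11.7 and 6.59 in stimulated slices. Bcl6b in T41B BD10-2 mice was at 1.96, 2.38, 2.14, 2.47 and 1.48 CPM in sham and 8.12, 10.5, 13.1, 15.9 and 5.88 in stimulated slices. Outside wild-type vehicle mice the groups did not overlap. Log2 differences of Bcl6b were 2.00 ± 0.42 (adjusted p = 0.00129), 2.82 ± 0.43 (1.2e-05), 2.18 ± 0.46 (0.00182) and 2.36 ± 0.36 (1.11e-05). Leaving out any 1 mouse ended no call, and leaving out the choroid-high slices ended that of wild-type vehicle mice, at 1.18 (adjusted p = 0.0729). Over the 12 alternatives of that value the adjusted p ran from 2.59e-05 to 0.0729.

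Fli1, the ETS factor closest to Erg, differed by 0.01 to 0.21 and was called in no comparison. Sox17 fell in wild-type vehicle mice (-1.37 ± 0.43, adjusted p = 0.0364) and was at -0.31, -0.72 and -0.85 in the others, without passing. Its call was lost without Mouse1513, at -1.15 (adjusted p = 0.151), without Mouse1522, at -1.45 (adjusted p = 0.0874), and without Mouse1524, at -1.07 (adjusted p = 0.146). It was also lost without the 2 low slices, at -1.05 (adjusted p = 0.0965), and with only the groups compared, at -1.36 (adjusted p = 0.136). Sox18 was called in none, at 0.00 to 0.72.

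Of the 4 transporters of the barrier, Slco1a4 was called lower in every comparison, as 1.02% of all genes were. Mfsd2a was called higher in 3, and Slco1c1 and Abcb1a were called in none. The backgrounds were 8.21%, 11.7%, 6.29% and 13.3% higher and 4.1%, 9.83%, 2.58% and 9.52% lower. Slco1a4, an organic anion transporter (chromosome 6, 141805440 to 141856199, minus strand), fell in every comparison and in all 14 mice. Slco1a4 in wild-type vehicle mice was at 16.3, 20.3, 14.6 and 11.9 CPM in sham and 6.21, 6.23, 3.72 and 1.78 in stimulated slices. Slco1a4 in T41B vehicle mice was at 15.3, 12.4, 6.01 and 13.8 CPM in sham and 2.5, 2.55, 0.99 and 1.37 in stimulated slices. The highest stimulated value was under the lowest sham value in both genotypes. Slco1a4 in wild-type BD10-2 mice was at 13, 14.1 and 15.5 CPM in sham and 2.27, 4.22 and 1.65 in stimulated slices. Slco1a4 in T41B BD10-2 mice was at 12.4, 17, 10.6, 12.6 and 12.1 CPM in sham and 2.69, 2.16, 2.59, 1.57 and 4.79 in stimulated slices. No comparison had overlapping groups. Log2 differences of Slco1a4 were -1.80 ± 0.33 (adjusted p = 0.000296), -2.66 ± 0.36 (2.86e-06), -2.44 ± 0.40 (9.17e-05) and -2.18 ± 0.31 (2.65e-06). All 4 calls held under all alternatives tried, and without the choroid-high slices the vehicle values were -2.49 (adjusted p = 8.43e-05) in wild-type and -2.87 (adjusted p = 0.000106) in T41B mice. Of the 4 windows printed, that of Slco1a4 is the one that holds the ETS core.

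Mfsd2a, the lipid transporter that restrains transcytosis across the barrier, rose in 3 comparisons. Mfsd2a in wild-type vehicle mice was at 9.6, 8.57, 16.7 and 11.9 CPM in sham and 16.1, 13.7, 19.3 and 20.8 in stimulated slices. Mfsd2a in T41B vehicle mice was at 15.5, 11.8, 12.2 and 15 CPM in sham and 24.9, 22.9, 23.1 and 17.4 in stimulated slices. The wild-type groups overlapped and the T41B groups did not. Mouse1524, low in most members, held the highest stimulated Mfsd2a of its group. Its stimulated slice was the lowest of the group in Flt1 (7.62 CPM) and Cldn5 (4.61 CPM). It was not the lowest in Mfsd2a, Slco1c1, Apln or Pdgfb. How far the counts of these genes come from endothelium was not tested. Mfsd2a in wild-type BD10-2 mice was at 16.3, 15 and 15.2 CPM in sham and 18.5, 14 and 17.1 in stimulated slices. Mfsd2a in T41B BD10-2 mice was at 11.3, 15.9, 14.6, 18.2 and 17.2 CPM in sham and 30.7, 30.9, 20.7, 24.6 and 26.1 in stimulated slices. The wild-type BD10-2 groups overlapped, and the T41B BD10-2 groups did not. Log2 differences of Mfsd2a were 0.58 ± 0.18 (adjusted p = 0.0292), 0.70 ± 0.17 (0.00387), 0.10 ± 0.20 (0.825) and 0.80 ± 0.15 (0.000245). In wild-type vehicle mice the call was lost without Mouse1509 at 0.53 (adjusted p = 0.127), without Mouse1513 at 0.56 (adjusted p = 0.0679) and without Mouse1524 at 0.49 (adjusted p = 0.148). It was also lost without the 2 low slices, at 0.48 (adjusted p = 0.1), and with only the groups compared, at 0.59 (adjusted p = 0.108). In T41B vehicle mice it was lost without the choroid-high slices, at 0.47 (adjusted p = 0.295). Over their alternatives the adjusted p of these 2 values ran from 0.00441 to 0.148 and from 0.000564 to 0.295. Slco1c1, a thyroxine transporter, and Abcb1a, the efflux pump P-glycoprotein, were called in none, though Abcb1a was at -1.02 (adjusted p = 0.00539) in wild-type vehicle mice in the paired fit, blocked by mouse (replicate block), and at -1.50 (adjusted p = 0.0121) without the choroid-high slices. Slco1c1 came nearest in wild-type BD10-2 mice, at -0.50 ± 0.16 (adjusted p = 0.0517).

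Among the tip cell and secreted genes, 2 of the 4 tested rose in every comparison, as 4.46% of all genes did. Angpt2, angiopoietin 2 (chromosome 8, 18690263 to 18741562, minus strand), was the lowest of the tested endothelial members in sham slices per kilobase. Angpt2 in wild-type vehicle mice was at 0.534, 1.08, 1.26 and 0.462 CPM in sham and 4.72, 2.48, 1.99 and 0.246 in stimulated slices. Angpt2 in T41B vehicle mice was at 1.44, 1.09, 0.425 and 0.84 CPM in sham and 6.27, 5.73, 4.24 and 2.6 in stimulated slices. Of the stimulated slices only that of Mouse1524 was under its own sham value. Angpt2 in wild-type BD10-2 mice was at 1.1, 0.992 and 0.866 CPM in sham and 5.15, 3.84 and 3.01 in stimulated slices. Angpt2 in T41B BD10-2 mice was at 0.954, 1.24, 1.16, 1.15 and 0.583 CPM in sham and 6.82, 7.79, 8.25, 9.17 and 3.19 in stimulated slices. In all groups but wild-type vehicle every stimulated value lay above every sham value. Log2 differences of Angpt2 were 1.54 ± 0.50 (adjusted p = 0.0396), 2.33 ± 0.47 (0.000506), 1.99 ± 0.52 (0.0124) and 2.79 ± 0.41 (5.59e-06). In wild-type vehicle mice the call was lost without Mouse1509, at 0.79 (adjusted p = 0.43), without Mouse1513, at 1.66 (adjusted p = 0.0873), without the choroid-high slices, at 0.52 (adjusted p = 0.587), and with only the groups compared, at 1.54 (adjusted p = 0.181). In wild-type BD10-2 mice it was lost without Mouse1565, at 1.85 (adjusted p = 0.143), without Mouse1571, at 2.00 (adjusted p = 0.0798), and without Mouse1590, at 1.92 (adjusted p = 0.0661). The adjusted p over alternatives ran from 0.00166 to 0.587 and from 0.00114 to 0.143.

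Adamts9, a secreted metalloprotease that cleaves proteoglycans (chromosome 6, 92772699 to 92943492, minus strand), rose in every comparison. Adamts9 in wild-type vehicle mice was at 26.7, 22.9, 31.7 and 29.2 CPM in sham and 109, 83.2, 74.9 and 27.4 in stimulated slices. Adamts9 in T41B vehicle mice was at 35.9, 16.1, 16 and 29.4 CPM in sham and 160.0, 144, 81.6 and 85.5 in stimulated slices. Mouse1524 was again the exception, and its stimulated value lay within the sham range. Adamts9 in wild-type BD10-2 mice was at 27.2, 34.5 and 24.4 CPM in sham and 79.5, 116 and 65.5 in stimulated slices. Adamts9 in T41B BD10-2 mice was at 22.4, 31.1, 27.2, 28.3 and 20.7 CPM in sham and 116, 138, 143, 144 and 60.8 in stimulated slices. These groups did not overlap. Log2 differences of Adamts9 were 1.41 ± 0.32 (adjusted p = 0.00283), 2.28 ± 0.33 (5.2e-06), 1.60 ± 0.37 (0.00419) and 2.22 ± 0.29 (7.23e-07). The wild-type vehicle call was lost without Mouse1509, at 1.15 (adjusted p = 0.055), and without the choroid-high slices, at 0.89 (adjusted p = 0.073), and the wild-type BD10-2 call without Mouse1571, at 1.48 (adjusted p = 0.0533). The adjusted p over alternatives ran from 9.27e-05 to 0.073 and from 0.00092 to 0.0533. Apln, the peptide apelin, differed by -0.13 to 0.04, and Pdgfb, the growth factor that attracts pericytes, by 0.09 to 0.48, and neither was called. With the mouse as a replicate block Pdgfb was at 0.50 (adjusted p = 0.00943) in wild-type vehicle mice.

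**Figure D2:**
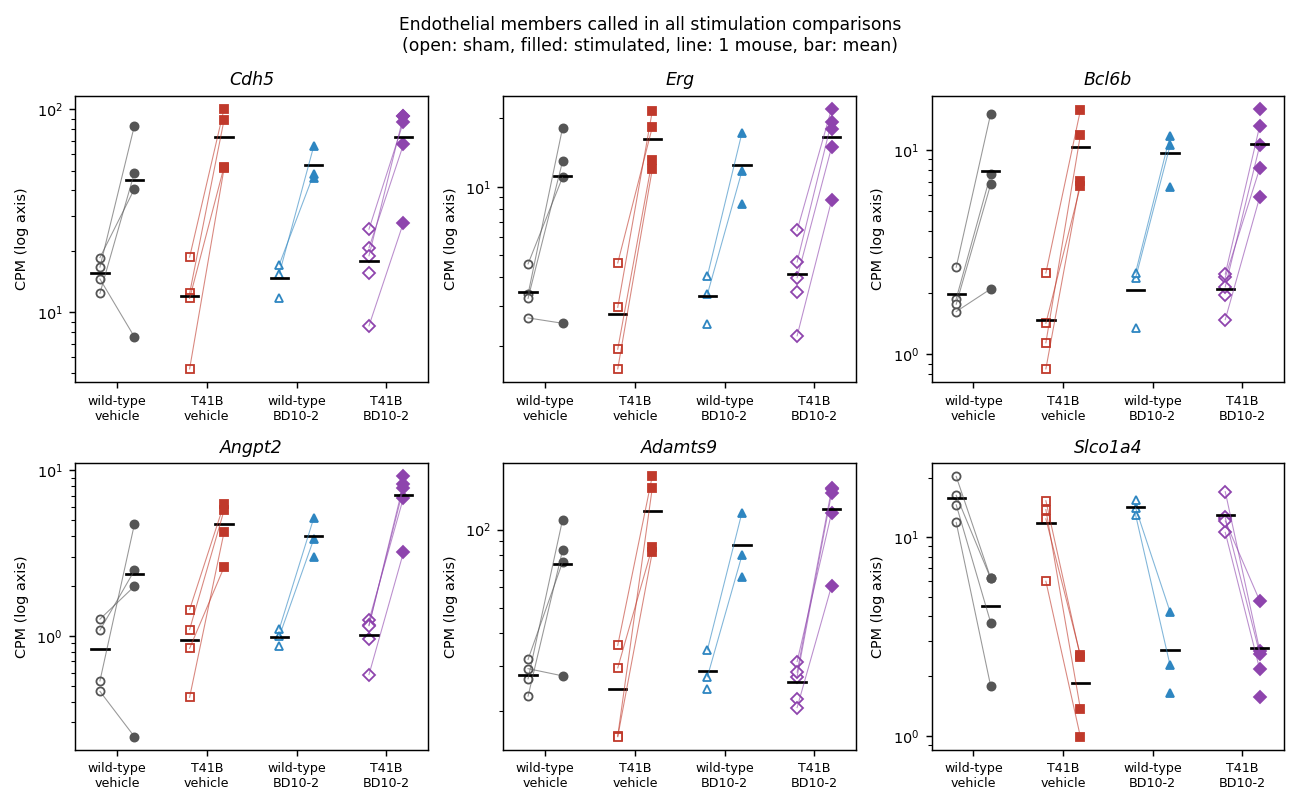
CPM on a log axis of the 6 endothelial genes called in all 4 stimulation comparisons, with open symbols for sham and filled symbols for stimulated slices, lines joining the 2 slices of a mouse and bars at group means. Lines climb for 5 genes in 13 or 14 of 14 mice and drop for Slco1a4 in all 14, and the 1 wild-type vehicle mouse whose lines drop for Cdh5, Erg, Angpt2 and Adamts9 is Mouse1524.

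Of the other endothelial genes, Nos3, endothelial nitric oxide synthase, rose in T41B vehicle (1.84 ± 0.39, adjusted p = 0.000864) and T41B BD10-2 mice (1.54 ± 0.34, 0.00104), and stood at 0.84 ± 0.38 and 0.85 ± 0.42 in wild-type mice without passing. In wild-type vehicle mice Nos3 was at 1.09 (adjusted p = 0.0392) without Mouse1524 and at 1.18 (adjusted p = 0.00836) without the 2 low slices. Vwf, von Willebrand factor, and Ly6a were called in none, though Vwf was at -1.39 (adjusted p = 0.0335) in wild-type vehicle mice without the choroid-high slices.

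Ly6c1, a surface protein of brain capillary endothelium, fell in 3 comparisons and was at a lower level after stimulation in each of the 14 mice. Ly6c1 in wild-type vehicle mice was at 10.9, 8.07, 9.74 and 8.43 CPM in sham and 5.79, 5.29, 4.19 and 0.738 in stimulated slices. Ly6c1 in T41B vehicle mice was at 10.1, 8.15, 5.21 and 9.61 CPM in sham and 5.86, 4.31, 4.35 and 4.62 in stimulated slices. The wild-type groups did not overlap, and the T41B groups did because the sham slice of Mouse1553 was low. Ly6c1 in wild-type BD10-2 mice was at 11.1, 12.5 and 9.2 CPM in sham and 3.69, 5.58 and 2.69 in stimulated slices. Ly6c1 in T41B BD10-2 mice was at 7.65, 10.0, 10.2, 15.2 and 9.48 CPM in sham and 4.58, 5.33, 6.6, 5.27 and 6.06 in stimulated slices. Neither of these comparisons had overlapping groups. Log2 differences of Ly6c1 were -1.20 ± 0.31 (adjusted p = 0.00935), -0.78 ± 0.31 (0.0673), -1.49 ± 0.35 (0.0058) and -0.90 ± 0.27 (0.0148). The T41B vehicle value was -0.92 (adjusted p = 0.0022) without the low slices of Mouse1524 and Mouse1553, and -0.76 (adjusted p = 0.0408) in the paired fit. The wild-type vehicle value was -1.19 (adjusted p = 0.112) with only the groups compared. The wild-type BD10-2 call was lost without Mouse1565, at -1.45 (adjusted p = 0.0756), and without Mouse1586, at -1.23 (adjusted p = 0.0615), and the T41B BD10-2 call without Mouse1563, at -0.85 (adjusted p = 0.0526), and without Mouse1570, at -0.80 (adjusted p = 0.0617). The adjusted p over alternatives ran from 0.0022 to 0.202 in T41B vehicle, from 0.000876 to 0.0756 in wild-type BD10-2 and from 0.00142 to 0.0617 in T41B BD10-2 mice.

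The endothelial members thus did not move as 1 block, which can be seen within each slice, where the ratio of 2 endothelial genes does not depend on depth. The ratio of Cdh5 to Flt1 was 0.227 to 0.415 in the 16 sham slices (median 0.319) and 0.733 to 1.39 in the 16 stimulated slices (median 1.07), with no overlap, Mouse1524 included. The ratio of Erg to Flt1 was 0.0536 to 0.113 against 0.228 to 0.334, and that of Bcl6b to Flt1 0.0287 to 0.0602 against 0.124 to 0.274. Cdh5 against Cldn5 gave 0.604 to 1.43 in sham and 1.64 to 4.54 in stimulated slices. Slco1a4 against Flt1 moved the other way with some overlap, from 0.17 to 0.425 in sham slices and from 0.0221 to 0.234 in stimulated slices. These pairs were chosen after their values were seen, so they are descriptions without a test.

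The 10 mural members were called lower or not at all. Of the 7 pericyte-enriched genes, 4, 0, 2 and 4 fell in the 4 comparisons and 0 rose, and of the 3 contractile genes 0 were called in any. The background for lower calls was 4.1%, 9.83%, 2.58% and 9.52%. That for higher calls was 8.21%, 11.7%, 6.29% and 13.3%, so that 0 of 10 higher is close to it and no result about the mural genes.

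Vtn, vitronectin, an adhesive protein that brain pericytes express (chromosome 11, 78499091 to 78502324, plus strand), fell in 3 comparisons and was at a lower level after stimulation in each of the 14 mice. Vtn in wild-type vehicle mice was at 28, 29.7, 24.5 and 26.9 CPM in sham and 18.2, 14.5, 14.3 and 6.39 in stimulated slices. Vtn in T41B vehicle mice was at 27.4, 23.4, 19.6 and 31.5 CPM in sham and 19.5, 23, 18.2 and 20.7 in stimulated slices. The wild-type groups were apart by a wide margin. In T41B vehicle mice the drop was near 0 in Mouse1551 and Mouse1553 and the groups overlapped. Vtn in wild-type BD10-2 mice was at 23.1, 25 and 37.1 CPM in sham and 12, 14.3 and 11.2 in stimulated slices. Vtn in T41B BD10-2 mice was at 30.8, 27.9, 35.9, 34.8 and 34.6 CPM in sham and 18.7, 17.4, 22.4, 21.5 and 23.1 in stimulated slices. In both BD10-2 comparisons sham and stimulated values were apart. Log2 differences of Vtn were -1.02 ± 0.19 (adjusted p = 0.000374), -0.33 ± 0.19 (0.23), -1.19 ± 0.22 (0.000465) and -0.67 ± 0.17 (0.00384). The 3 calls held under all alternatives tried. The T41B vehicle value was -0.40 (adjusted p = 0.0474) without the low slices, its only call, with adjusted p from 0.0474 to 0.539 over 12 alternatives.

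Notch3, the Notch receptor of mural cells (chromosome 17, 32120820 to 32166852, minus strand), was called lower in the same 3 comparisons as Vtn. Notch3 in wild-type vehicle mice was at 14.2, 11.5, 13.7 and 14.3 CPM in sham and 9.03, 6.67, 6.27 and 3.93 in stimulated slices. Notch3 in T41B vehicle mice was at 15.6, 10.4, 7.81 and 17 CPM in sham and 9.68, 9.31, 8.25 and 12 in stimulated slices. Sham and stimulated values were apart in wild-type and overlapped in T41B vehicle mice, where Mouse1553 alone was higher after stimulation. Notch3 in wild-type BD10-2 mice was at 12.3, 10.3 and 13.9 CPM in sham and 4.91, 7.44 and 5.44 in stimulated slices. Notch3 in T41B BD10-2 mice was at 13, 17.9, 16, 22.2 and 14 CPM in sham and 8.67, 10.6, 12.7, 7.6 and 10.0 in stimulated slices. No overlap was present in the BD10-2 groups. Log2 differences of Notch3 were -1.05 ± 0.22 (adjusted p = 0.00178), -0.37 ± 0.22 (0.243), -1.05 ± 0.26 (0.00782) and -0.73 ± 0.19 (0.00594). The wild-type BD10-2 call was lost without Mouse1565, at -0.93 (adjusted p = 0.117), and where only the deeper of 2 same-label libraries was kept, at -0.80 (adjusted p = 0.0655), within a range of 0.00163 to 0.117. The printed Notch3 promoter, with 4 GC boxes, is the richest of the 4 in that motif. Tbx2, a T-box factor of pericytes, fell in wild-type vehicle (-1.40 ± 0.24, adjusted p = 0.000138) and T41B BD10-2 mice (-0.86 ± 0.21, 0.00312) and stood at -0.34 ± 0.24 and -0.81 ± 0.27 in the others.

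Pdgfrb, the receptor by which pericytes respond to platelet-derived growth factor, fell in 2 comparisons. Pdgfrb in wild-type vehicle mice was at 22.2, 23.1, 18.9 and 22.6 CPM in sham and 17.6, 13.5, 11.5 and 9.53 in stimulated slices. Pdgfrb in T41B vehicle mice was at 17.3, 20.1, 16.4 and 22.6 CPM in sham and 20.8, 24.1, 12.1 and 18.9 in stimulated slices. In wild-type mice all stimulated values were under all sham values, and in T41B Mouse1510 and Mouse1551 the stimulated slice was the higher. Pdgfrb in wild-type BD10-2 mice was at 19, 20.1 and 24.2 CPM in sham and 12.9, 16.4 and 14.2 in stimulated slices. Pdgfrb in T41B BD10-2 mice was at 24.5, 24.5, 25.8, 26.2 and 25.6 CPM in sham and 16, 23.8, 17.3, 20.5 and 16.2 in stimulated slices. These groups did not overlap, though only the second passed the test. Log2 differences of Pdgfrb were -0.73 ± 0.17 (adjusted p = 0.00369), -0.01 ± 0.17 (0.967), -0.54 ± 0.19 (0.0762) and -0.44 ± 0.15 (0.033). The T41B BD10-2 call was lost without Mouse1557, at -0.45 (adjusted p = 0.0504), without Mouse1563, at -0.40 (adjusted p = 0.102), without Mouse1570, at -0.40 (adjusted p = 0.115), without Mouse1592, at -0.38 (adjusted p = 0.11), and with the deeper libraries, at -0.41 (adjusted p = 0.0586), in a range of 0.0129 to 0.115.

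Rgs5, a regulator of G protein signalling that marks pericytes, was called in no comparison. Rgs5 in wild-type vehicle mice was at 49, 55, 61.6 and 58.5 CPM in sham and 69.7, 61.9, 44 and 17.8 in stimulated slices. Rgs5 in T41B vehicle mice was at 66.8, 39.8, 23.5 and 44.8 CPM in sham and 81.6, 69.2, 52.5 and 52.3 in stimulated slices. Mouse1524 had the lowest stimulated and Mouse1553 the lowest sham value. Rgs5 in wild-type BD10-2 mice was at 50.2, 52.9 and 49.7 CPM in sham and 52.2, 59.6 and 35.4 in stimulated slices. Rgs5 in T41B BD10-2 mice was at 41.9, 61.9, 46.9, 69 and 41.9 CPM in sham and 63.9, 72.6, 88.3, 67.5 and 45.6 in stimulated slices. Sham and stimulated values overlapped in all 4 comparisons, while 12 of 14 mice had the higher value in the stimulated slice. Log2 differences of Rgs5 were -0.21 ± 0.29, 0.55 ± 0.29, -0.06 ± 0.33 and 0.37 ± 0.25, with adjusted p of 0.176 or more. Kcnj8 and Abcc9, the subunits of the pericyte ATP-sensitive potassium channel, were also called in none, at -0.09 to 0.25 and -0.58 to -0.01. In the paired fit, blocked by mouse (replicate block), Abcc9 was at -0.65 (adjusted p = 0.0149) in wild-type vehicle mice, and without the choroid-high slices at -1.02 (adjusted p = 0.00458).

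Acta2, smooth muscle actin, was low, and 13 of 14 mice had the lower value in the stimulated slice. Acta2 in wild-type vehicle mice was at 3.85, 3.75, 3.33 and 2.48 CPM in sham and 3.47, 2.86, 2.55 and 1.35 in stimulated slices. Acta2 in T41B vehicle mice was at 3.94, 1.83, 4.3 and 2.52 CPM in sham and 1.91, 1.25, 1.76 and 1.76 in stimulated slices. The groups overlapped in both. Acta2 in wild-type BD10-2 mice was at 3.31, 2.77 and 6.28 CPM in sham and 0.811, 3.91 and 1.12 in stimulated slices. Acta2 in T41B BD10-2 mice was at 4.64, 2.49, 3.06, 5.36 and 4.02 CPM in sham and 1.89, 1.56, 5.01, 2.26 and 2.04 in stimulated slices. Here too they overlapped, and Mouse1570 was the highest stimulated slice. Log2 differences of Acta2 were -0.38 ± 0.40, -0.90 ± 0.41, -1.15 ± 0.46 and -0.62 ± 0.35, and none passed. The T41B vehicle difference was -0.88 (adjusted p = 0.0414) in the paired fit, blocked by mouse (replicate block), and the wild-type BD10-2 difference was -2.27 (adjusted p = 0.00506) without Mouse1571. The adjusted p over alternatives ran from 0.0414 to 0.496 and from 0.00506 to 0.483. Tagln and Myh11, of the same contractile apparatus, were called in none.

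**Figure D3:**
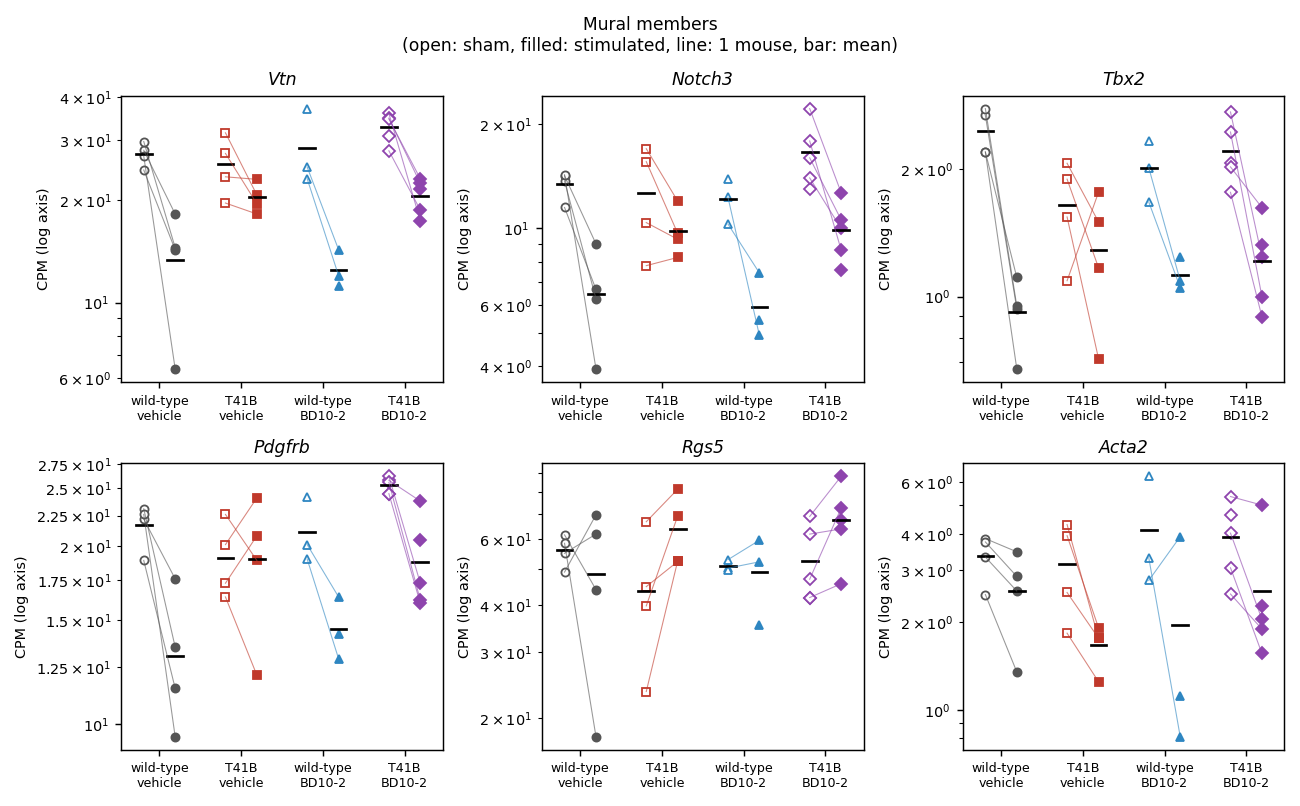
CPM on a log axis of 6 mural genes, with open symbols for sham and filled symbols for stimulated slices, lines joining the 2 slices of a mouse and bars at group means. Vtn drops in 14 of 14 mice and Notch3, Tbx2 and Acta2 in 13, whereas Rgs5 climbs in 12 of 14.

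Within slices the mural genes also parted. The ratio of Vtn to Rgs5 was 0.398 to 0.835 in sham slices (median 0.555) and 0.229 to 0.506 in stimulated slices (median 0.304). That of Notch3 to Rgs5 was 0.194 to 0.378 against 0.0939 to 0.229, and that of Pdgfrb to Rgs5 0.259 to 0.697 against 0.195 to 0.536. All 3 ranges overlapped, and the pairs were chosen after their values were seen.

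**Figure D4:**
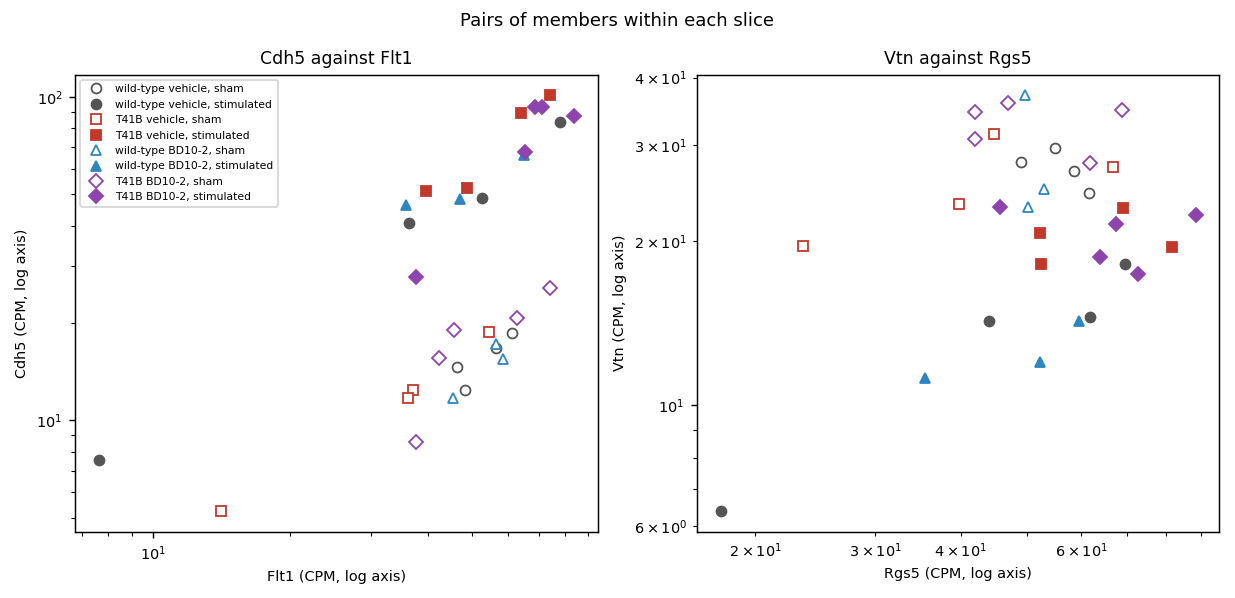
Each point is 1 of 32 slices, with Cdh5 against Flt1 on the left and Vtn against Rgs5 on the right, in CPM on log axes, open for sham and filled for stimulated. At a given Flt1 level the stimulated slices lie higher in Cdh5 (ratios of 0.733 to 1.39 against 0.227 to 0.415), and at a given Rgs5 level most lie lower in Vtn.

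Of 20 ligands and angiogenic signals, 5, 9, 5 and 10 were called higher and 1, 0, 1 and 1 lower in the 4 comparisons, against 8.21%, 11.7%, 6.29% and 13.3% of all genes higher and 4.1%, 9.83%, 2.58% and 9.52% lower. Angptl4, a secreted lipase inhibitor, went from 2.79 ± 0.924 to 53.7 ± 5.54 CPM in wild-type vehicle mice (SD, n = 4 each), and its log2 differences were 4.26 ± 0.35, 4.48 ± 0.34, 3.73 ± 0.38 and 4.20 ± 0.30. Edn1, the vasoconstrictor endothelin 1, rose by 4.01 ± 0.41, 3.25 ± 0.37, 3.69 ± 0.45 and 3.89 ± 0.34. The adjusted p of these 8 differences was 1.05e-06 or less. Tgfb1 rose by 0.59 ± 0.16 to 1.03 ± 0.14, and Dll4, a Notch ligand of endothelium, rose in T41B vehicle (1.27 ± 0.29) and T41B BD10-2 mice (0.89 ± 0.25). Edn3 fell in wild-type vehicle (-1.33 ± 0.39), wild-type BD10-2 (-1.51 ± 0.45) and T41B BD10-2 mice (-1.23 ± 0.35). The stimulation calls of Angptl4, Edn1 and Tgfb1 held under all alternatives tried. Dll4 lost its T41B BD10-2 call without Mouse1564 (adjusted p = 0.0673), and its T41B vehicle call without the choroid-high slices (adjusted p = 0.164). Edn3 lost its wild-type vehicle call without Mouse1513 or Mouse1524 (adjusted p = 0.0913 to 0.102) or with only the groups compared (0.0811), its wild-type BD10-2 call without Mouse1565, Mouse1571, Mouse1586 or Mouse1590 (adjusted p = 0.067 to 0.187), with the deeper libraries (0.125), with batch as a covariate (0.0795) or in the paired fit (0.18), and its T41B BD10-2 call without Mouse1570 (adjusted p = 0.104).

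Of 24 further endothelial genes, 3, 9, 5 and 8 were called higher and 5, 4, 4 and 5 lower. The shares of all genes called were 8.21%, 11.7%, 6.29% and 13.3% higher and 4.1%, 9.83%, 2.58% and 9.52% lower. Selp, P-selectin, which endothelium exposes to leukocytes, went from 0.388 ± 0.291 to 6.96 ± 2.92 CPM in T41B BD10-2 mice (SD, n = 5 each), and its log2 differences were 4.04 ± 0.86, 3.74 ± 0.75, 4.43 ± 0.87 and 3.99 ± 0.65. Sox7 rose in T41B vehicle (1.15 ± 0.27), wild-type BD10-2 (1.25 ± 0.31) and T41B BD10-2 mice (1.04 ± 0.24). Robo4, a guidance receptor of endothelium, rose in T41B vehicle (1.64 ± 0.40) and T41B BD10-2 mice (1.13 ± 0.35), and Slc16a1, a monocarboxylate transporter, rose in all 4, by 0.58 ± 0.17 to 0.99 ± 0.13. Heyl, a target of Notch, fell in all 4 (-0.91 ± 0.29, -1.25 ± 0.31, -1.53 ± 0.34 and -1.28 ± 0.27), as did Clec14a, a lectin of the endothelial surface (-1.07 ± 0.28 to -1.36 ± 0.25). Ptprb, the phosphatase that acts on Tek, fell in wild-type vehicle (-1.49 ± 0.36) and T41B BD10-2 mice (-1.15 ± 0.32), and Slc38a5, an amino acid transporter, in T41B vehicle (-1.78 ± 0.58) and T41B BD10-2 mice (-2.01 ± 0.49).

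The calls of these endothelial genes differed in how often they were lost with 1 mouse left out. Selp, Sox7 and Robo4 held in T41B vehicle mice without any 1 mouse, and Selp also in wild-type vehicle and T41B BD10-2 mice. In wild-type BD10-2 mice Selp was lost without Mouse1571 (adjusted p = 0.0533) and Sox7 without Mouse1571 or Mouse1590 (adjusted p = 0.0726 to 0.0794), and in T41B BD10-2 mice Robo4 was lost without Mouse1557 or Mouse1572 (adjusted p = 0.0563 to 0.0594). Slc16a1 was lost in wild-type BD10-2 mice without Mouse1565, Mouse1586 or Mouse1590 (adjusted p = 0.0729 to 0.186) or in the paired fit (0.178). Heyl was lost in wild-type vehicle mice without Mouse1509, Mouse1513 or Mouse1522 (adjusted p = 0.0797 to 0.159), with no filter (0.0617), with the deeper libraries (0.0683), with only the groups compared (0.0529) or without the choroid-high slices (0.146) and in wild-type BD10-2 mice without Mouse1565 (adjusted p = 0.0592). Clec14a was lost in wild-type vehicle mice without Mouse1509 or Mouse1524 (adjusted p = 0.05 to 0.0957) or with only the groups compared (0.08), in T41B vehicle mice without Mouse1551 (adjusted p = 0.0661) or without the choroid-high slices (0.318) and in wild-type BD10-2 mice without Mouse1590 (adjusted p = 0.0544) or in the paired fit (0.0595). Slc38a5 was lost in T41B vehicle mice without Mouse1510, Mouse1551 or Mouse1553 (adjusted p = 0.0634 to 0.14) or without the choroid-high slices (0.306), and Ptprb in wild-type vehicle mice with only the groups compared (adjusted p = 0.0609). Sox7, Selp, Robo4 and Slc16a1 also lost a vehicle call without the choroid-high slices, with adjusted p of 0.175 (Sox7, T41B), 0.0656 (Selp, wild-type), 0.0544 (Robo4, T41B) and 0.126 (Slc16a1, T41B). In the paired fit Sox7 passed in wild-type vehicle mice too, at 0.65 (adjusted p = 0.0479).

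Of 18 further mural genes 15 were tested, with 2, 3, 1 and 2 called higher and 5, 4, 6 and 5 lower. The backgrounds were the same 8.21%, 11.7%, 6.29% and 13.3% higher and 4.1%, 9.83%, 2.58% and 9.52% lower. Higd1b, P2ry14 and Atp13a5 fell in every comparison, with log2 differences for Higd1b of -2.33 ± 0.46, -3.22 ± 0.54, -2.15 ± 0.49 and -1.43 ± 0.38 and for P2ry14 of -2.82 ± 0.46, -1.74 ± 0.42, -2.02 ± 0.45 and -1.52 ± 0.35. Higd1b is a low gene, at 0.789 ± 0.337 CPM in sham and 0.155 ± 0.0695 in stimulated slices of wild-type vehicle mice (SD, n = 4 each). Atp13a5 differed by -1.59 ± 0.22 in wild-type BD10-2 and by -0.62 ± 0.18 in T41B vehicle mice. Ndufa4l2 fell in the 3 comparisons other than wild-type vehicle (-1.68 ± 0.55, -2.31 ± 0.59 and -1.43 ± 0.47). Mcam and Ednra, the receptor of endothelin 1 on mural cells, were each called higher in 3 comparisons, Mcam by 0.88 ± 0.18, 0.89 ± 0.21 and 0.49 ± 0.16 and Ednra by 0.59 ± 0.19, 0.54 ± 0.19 and 0.51 ± 0.16. Higd1b lost its T41B BD10-2 call without Mouse1564 (adjusted p = 0.0665) and its wild-type BD10-2 call in the paired fit (adjusted p = 0.0552), and P2ry14 its wild-type BD10-2 call without Mouse1565 (adjusted p = 0.0625). Atp13a5 lost its T41B vehicle call without Mouse1510, Mouse1551 or Mouse1579 (adjusted p = 0.059 to 0.0691) or with only the groups compared (0.0774). Ndufa4l2 lost its T41B vehicle call without Mouse1510 or Mouse1553 (adjusted p = 0.0932 to 0.114) or without the choroid-high slices (0.197), its wild-type BD10-2 call without Mouse1565 or Mouse1571 (adjusted p = 0.0638 to 0.103), and its T41B BD10-2 call without Mouse1557, Mouse1563, Mouse1564 or Mouse1572 (adjusted p = 0.0626 to 0.0839) or in the paired fit (0.0842). Mcam lost its wild-type BD10-2 call without Mouse1590 (adjusted p = 0.0509) or in the paired fit (0.0662) and its T41B BD10-2 call without Mouse1564 or Mouse1570 (adjusted p = 0.0816 to 0.103). Ednra lost its wild-type vehicle call without Mouse1509 or Mouse1513 (adjusted p = 0.16 to 0.358), with no filter (0.0553), with only the groups compared (0.158) or without the choroid-high slices (0.63), its T41B vehicle call without Mouse1551, Mouse1553 or Mouse1579 (adjusted p = 0.0916 to 0.129), with no filter (0.0629), with only the groups compared (0.122), without the low slices (0.0648) or without the choroid-high slices (0.253), and its T41B BD10-2 call without Mouse1557, Mouse1564, Mouse1570 or Mouse1592 (adjusted p = 0.0534 to 0.0693). In the paired fit Mcam passed in T41B vehicle mice, at 0.45 (adjusted p = 0.0263), and Ndufa4l2 in wild-type vehicle mice, at -1.41 (adjusted p = 0.041).

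The number of members called between genotypes was 0 to 4, and in stimulated vehicle slices it depended on the setting. In sham vehicle slices 0 of 39 members were called between T41B and wild-type mice, against a background of 5.0% higher and 1.24% lower, and 3 had an unadjusted p under 0.05, against 21.4% of all genes. In sham BD10-2 slices 0 were called, against 4.31% and 1.14%, and 1 had an unadjusted p under 0.05, against 18.9%. In stimulated vehicle slices Eng was higher and Slco1a4 lower in T41B mice, against 4.74% and 1.05%, and leaving out 1 mouse at a time gave 0 to 6 calls. With batch as a covariate these slices gave 9 calls, all higher in T41B mice, against 3.08% of all genes higher in that fit, namely Eng, Esam, Bcl6b, Angpt2, Adamts9, Pdgfrb, Abcc9, Notch3 and Vtn. Without the choroid-high slices they gave 5, against 1.13% higher, namely Eng, Esam at 1.37 (adjusted p = 0.0409), Pdgfrb at 0.93 (adjusted p = 0.0089), Abcc9 at 1.04 (adjusted p = 0.0411) and Notch3 at 1.08 (adjusted p = 0.0411). The calls numbered 4 with DESeq2 (Eng, Slco1a4, Pdgfrb and Vtn, against 6.94% of all genes in either direction), 1 without the 2 low slices (Slco1a4, against 6.74%) and 0 with only the groups compared (against 4.57%). Among vehicle mice only batches A and C held both genotypes, and the wild-type mouse of batch C was Mouse1524. Its stimulated slice, low in vascular transcripts, was part of both fits that gave 9 and 5 calls. In stimulated BD10-2 slices Eng, Mfsd2a, Notch3 and Vtn were higher and none was lower, against 8.19% and 2.36%, and leaving out 1 mouse at a time gave 1 to 4 calls. The 6 calls in vehicle slices were reached without wild-type Mouse1509 and were Eng, Esam, Fli1, Angpt2, Pdgfrb and Vtn, against 3.93% higher. In stimulated BD10-2 slices batch as a covariate gave 1 call and the deeper libraries 2, against 9.13% and 11.8% of all genes. Microglial markers were called higher in T41B mice in 6, 2, 5 and 6 of 8 in the order sham vehicle, stimulated vehicle, sham BD10-2, stimulated BD10-2, and their part in these values was not tested. Of the choroid plexus markers, Ttr was called higher in T41B mice in sham vehicle slices. Folr1, Sostdc1 and Slc4a5 were called lower in stimulated vehicle slices, and none was called in BD10-2 slices. The part of choroid plexus in these values was not tested either.

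Eng in stimulated slices was 31.2 ± 5.71 CPM in T41B and 15.9 ± 8.52 in wild-type vehicle mice (SD, n = 4 each), a log2 difference of 0.96 ± 0.28 (adjusted p = 0.0382). It was 35.9 ± 12.8 in T41B (n = 5) and 18.2 ± 3.84 in wild-type BD10-2 mice (n = 3), a difference of 0.98 ± 0.30 (0.0302). The groups overlapped in both. Within the labelled batches that hold both genotypes, T41B minus wild-type on the log2(CPM + 1) scale was 1.25 in batch A and 1.78 in batch C (1 mouse each, vehicle) and 1.0 in batch I (2 mice each, BD10-2). The wild-type mouse of batch C was Mouse1524, whose stimulated slice was low in vascular transcripts. That batch also gave 1.65 for Cldn5 and 1.51 for Rgs5 in stimulated slices, but -0.23 for Slco1a4 and -0.24 for Mfsd2a. With batch as a covariate the differences of Eng were 1.24 (adjusted p = 0.0353) and 0.90 (adjusted p = 0.0584). Both calls of Eng were lost in several fits that left out 1 mouse. The vehicle difference was 0.90 (adjusted p = 0.102) without T41B Mouse1510, 0.97 (adjusted p = 0.089) without wild-type Mouse1513, 0.91 (adjusted p = 0.11) without Mouse1522, 0.72 (adjusted p = 0.115) without Mouse1524, 0.90 (adjusted p = 0.127) without T41B Mouse1551 and 0.98 (adjusted p = 0.0645) without Mouse1553. It was 0.73 (adjusted p = 0.0888) without the 2 low slices and 0.97 (adjusted p = 0.166) with only the groups compared. The BD10-2 difference was 0.82 (adjusted p = 0.116) without T41B Mouse1564, 0.95 (adjusted p = 0.0556) without Mouse1570, 0.89 (adjusted p = 0.182) without wild-type Mouse1565 and 0.90 (adjusted p = 0.119) without Mouse1586, and it was 0.97 (adjusted p = 0.0821) with only the groups compared. Over their alternatives the adjusted p ran from 0.00488 to 0.166 and from 0.00266 to 0.182.

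Slco1a4 in stimulated vehicle slices was 1.85 ± 0.794 CPM in T41B and 4.48 ± 2.15 in wild-type mice (SD, n = 4 each), a difference of -1.26 ± 0.37 (adjusted p = 0.0391) with overlapping groups. Wild-type Mouse1509, Mouse1513 and Mouse1522 lay above all T41B values and Mouse1524 among them, and the stimulated slices of wild-type Mouse1509 and Mouse1513 and of T41B Mouse1551 and Mouse1553 were high in choroid plexus markers. Without the choroid-high slices the difference was -0.49 (adjusted p = 0.715), with batch as a covariate -0.57 (adjusted p = 0.437) and with only the groups compared -1.26 (adjusted p = 0.152). Within batches A and C it was -0.43 and -0.23 on the log2(CPM + 1) scale. The call was also lost without wild-type Mouse1509, at -1.07 (adjusted p = 0.159), without Mouse1513, at -1.08 (adjusted p = 0.148), without Mouse1522, at -1.35 (adjusted p = 0.0557), and without T41B Mouse1551, at -1.44 (adjusted p = 0.0559), Mouse1553, at -1.05 (adjusted p = 0.109), or Mouse1579, at -1.15 (adjusted p = 0.104). Its adjusted p ran from 0.00428 to 0.715 over the alternatives.

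In stimulated BD10-2 slices the T41B and wild-type groups did not overlap for Mfsd2a, Notch3 and Vtn. Mfsd2a was 26.6 ± 4.28 CPM against 16.6 ± 2.31 (SD, n = 5 and 3), a difference of 0.68 ± 0.18 (adjusted p = 0.0109), which was 0.58 (adjusted p = 0.0915) without wild-type Mouse1571 and 0.50 (adjusted p = 0.0562) with batch as a covariate. Notch3 was 9.93 ± 1.96 against 5.93 ± 1.34, a difference of 0.76 ± 0.24 (0.0352), and Vtn 20.6 ± 2.46 against 12.5 ± 1.61, a difference of 0.73 ± 0.20 (0.0155). Notch3 lost its call without T41B Mouse1564, at 0.73 (adjusted p = 0.0837), or Mouse1570, at 0.66 (adjusted p = 0.0797), without wild-type Mouse1565, at 0.65 (adjusted p = 0.228), or Mouse1586, at 0.68 (adjusted p = 0.139), with batch as a covariate, at 0.68 (adjusted p = 0.0849), and with the deeper of the same-label libraries, at 0.74 (adjusted p = 0.0562). Vtn lost its call without wild-type Mouse1565, at 0.72 (adjusted p = 0.0815), or Mouse1586, at 0.64 (adjusted p = 0.0957), and with the deeper libraries, at 0.61 (adjusted p = 0.0856). The adjusted p of Mfsd2a, Notch3 and Vtn ran over the alternatives from 0.00194 to 0.0915, from 0.0131 to 0.228 and from 0.00351 to 0.0957. In batch I, with 2 mice of each genotype, T41B minus wild-type was 0.46 for Mfsd2a, 0.62 for Notch3 and 0.70 for Vtn on the log2(CPM + 1) scale.

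**Figure D5:**
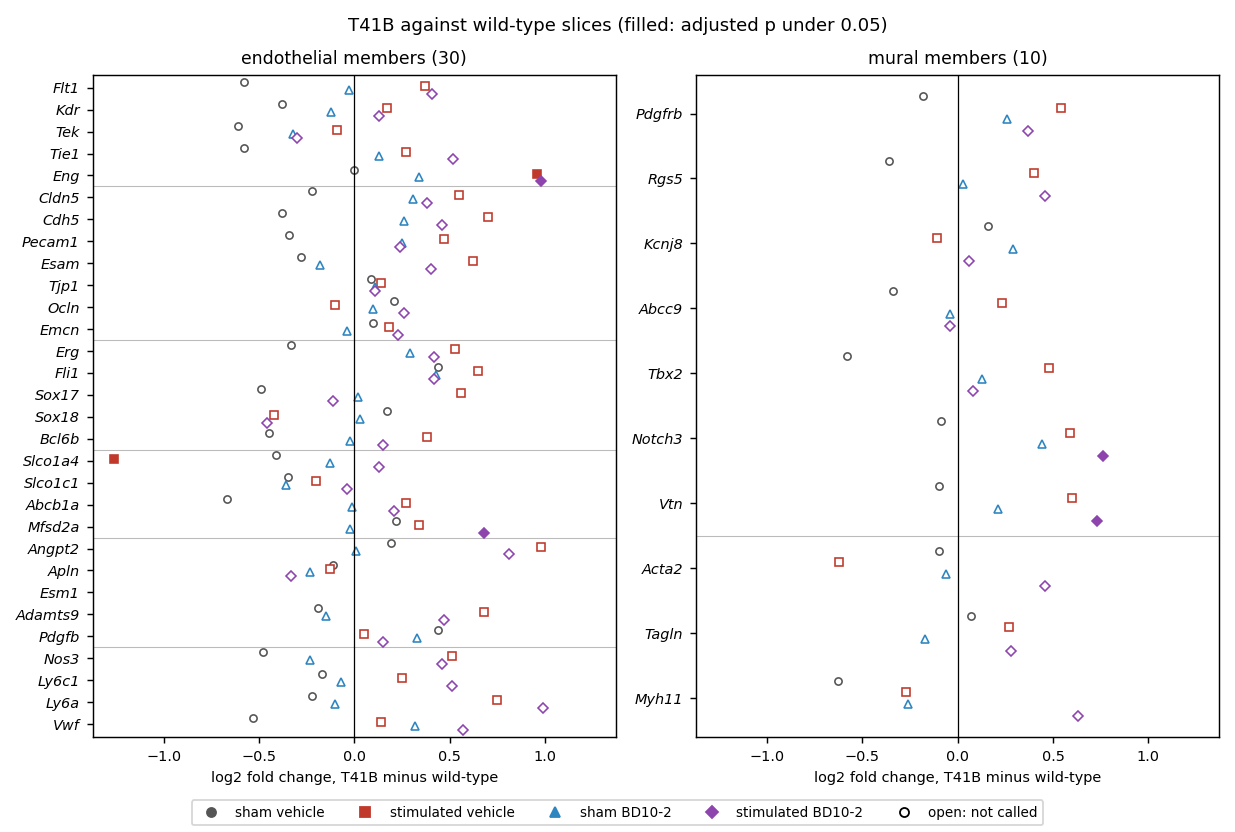
Log2 fold change of each member, T41B minus wild-type (horizontal axis), for endothelial genes (left) and mural genes (right), with 1 symbol per comparison and filled symbols for adjusted p under 0.05. The only filled symbols are Eng and Slco1a4 in stimulated vehicle slices and Eng, Mfsd2a, Notch3 and Vtn in stimulated BD10-2 slices.

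Among the further lists, Tgfb1 was higher in T41B mice in all 4 comparisons, by 1.44 ± 0.17, 1.09 ± 0.16, 1.18 ± 0.17 and 1.26 ± 0.17 in the order above. Tgfb1 is also a product of microglia. Angpt1, the angiopoietin that activates Tek, was higher in both BD10-2 comparisons (0.99 ± 0.24 and 1.25 ± 0.24), and so was Apcdd1, a Wnt inhibitor (0.48 ± 0.13 and 0.47 ± 0.13). Notch1 (0.66 ± 0.11 and 0.60 ± 0.12) and Nrp2 (0.35 ± 0.10 and 0.31 ± 0.10) were higher in both stimulated comparisons. The calls of Tgfb1 and Notch1 held under all alternatives tried. Angpt1 lost its sham call without wild-type Mouse1565 or Mouse1590 (adjusted p = 0.0533 to 0.0593). Apcdd1 lost its sham call without wild-type Mouse1565, Mouse1571 or Mouse1590 or T41B Mouse1592 (adjusted p = 0.0653 to 0.166), with no filter (0.0667) or with batch as a covariate (0.118) and its stimulated call without wild-type Mouse1565, Mouse1571 or Mouse1586 or T41B Mouse1563 or Mouse1564 (adjusted p = 0.0615 to 0.0878), with batch as a covariate (0.186) or with only the groups compared (0.0903). Nrp2 lost its vehicle call without wild-type Mouse1509, Mouse1513, Mouse1522 or Mouse1524 or T41B Mouse1510 or Mouse1551 (adjusted p = 0.0588 to 0.119), with no filter (0.06), with batch as a covariate (0.104) or without the choroid-high slices (0.354) and its BD10-2 call without wild-type Mouse1565, Mouse1571 or Mouse1586 or T41B Mouse1563, Mouse1564 or Mouse1570 (adjusted p = 0.0596 to 0.203), with no filter (0.133), with batch as a covariate (0.187) or with only the groups compared (0.221). Of the 20 ligands 2, 2, 2 and 6 were called higher and 0, 0, 0 and 1 lower, of the 24 endothelial genes 0, 1, 1 and 4 higher, and of the 15 mural genes 0, 0, 0 and 2 higher. The shares of all genes called were 5.0%, 4.74%, 4.31% and 8.19% higher and 1.24%, 1.05%, 1.14% and 2.36% lower.

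BD10-2 changed no member past the threshold. Of 39 members 0 were called between BD10-2 and vehicle in sham wild-type, stimulated wild-type, sham T41B or stimulated T41B slices, and edgeR called 0.0% of all genes in each. DESeq2 also called 0 members in each. Unadjusted p-values under 0.05 were held by 1, 1, 1 and 0 members, against 1.92%, 5.61%, 2.21% and 3.9% of all genes. They were those of Mfsd2a in sham wild-type (0.41 ± 0.19), Myh11 in stimulated wild-type (-0.94 ± 0.44) and Pdgfrb in sham T41B slices (0.40 ± 0.16). The median log2 difference of the members was 0.05, 0.12, 0.35 and 0.07, against -0.01, -0.01, -0.01 and 0.01 for all genes. The sham T41B median was the highest of the 4, with 36 of 39 members and 10 of 10 mural genes positive, and the vehicle side of that comparison includes the low sham slice of Mouse1553. That slice had a centred mean level of -0.64 over all members. The other sham slices were at -0.25 to 0.06 in T41B vehicle and at -0.16 to 0.35 in T41B BD10-2 mice. The median without the low slice is not given. Every labelled batch held mice of 1 treatment, so BD10-2 and batch cannot be told apart.

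The response to stimulation was not shown to differ between genotypes or treatments for any member. The interaction of genotype and stimulation gave 0 calls of 39 in vehicle and in BD10-2 mice, and that of treatment and stimulation 0 in wild-type and in T41B mice, again with 0.0% of all genes called by edgeR and 0 members by DESeq2. Unadjusted p-values under 0.05 were held by 6, 1, 1 and 0 members, against 8.64%, 4.34%, 1.73% and 2.7% of all genes. The 6 in vehicle mice were Eng (0.96 ± 0.41), Esam (0.90 ± 0.39), Pdgfrb (0.72 ± 0.24), Tbx2 (1.06 ± 0.34), Notch3 (0.67 ± 0.31) and Vtn (0.70 ± 0.27), each with the more positive response in T41B mice. The 1 in BD10-2 mice was Mfsd2a (0.70 ± 0.25), and the 1 in wild-type mice was Slco1c1 (-0.48 ± 0.21). The median interaction in vehicle mice was 0.67 over the members, with 32 of 39 positive, against -0.03 over all genes, and this contrast holds both low slices. The centred mean level over all members was -1.05 in the stimulated slice of Mouse1524 and -0.64 in the sham slice of Mouse1553. The other slices of these groups were at -0.17 to 0.43 and at -0.25 to 0.06. The median without the low slices is not given. The median interactions were 0.25 in BD10-2 mice, 0.04 for treatment in wild-type and -0.25 for treatment in T41B mice. The members called after stimulation in T41B and not in wild-type mice, such as Eng, Esam and Nos3, were therefore not shown to respond differently.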

How the data were processed

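RNA from 36 libraries of hippocampal slices from 18 mice was made with a kit that removes ribosomal RNA, from 200 ng of total RNA, per the labels' protocols. The authors deposited expected counts per gene, and the submitters' processing notes list RSEM 1.3.1, STAR 2.7.6a, cutadapt 1.8.1, featureCounts 1.6, SAMtools 1.11 and the build GRCm38.p6. The annotation release and the strand setting are not given in the sources used here. The 55421 Ensembl IDs had a symbol for 55154, and 5.7% of the values had decimals, so the expected counts were rounded.

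The 4 pairs of libraries with the same mouse and stimulation labels were summed, so that 32 samples in 8 groups (3 to 5 each) entered the fit. Samples of a group are separate mice. Depth was 11597555 to 28125842 expected counts per library, and mitochondrial genes took 2.0% to 5.4%. Genes were filtered with filterByExpr (minimum count 10), which kept 19478, and scaled by TMM (factors 0.91 to 1.063). One edgeR 4.0.16 quasi-likelihood fit (R 4.3.3, limma 3.58.1) over the 8 groups gave all comparisons, and p-values were adjusted by Benjamini-Hochberg over all genes kept, with calls at 0.05. CPM values were computed from the rounded counts. The script was tested on simulated data.

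Numbers that 2 samples share mark the same mouse, per the labels. Over 14 such pairs the deviations from the group means correlated at 0.29 on average (0.053 to 0.55), against -0.078 over 52 pairs of different mice. Alternatives were leaving out each mouse, no filter on low counts, the deeper library of each same-label pair, the mouse as a replicate block, batch as a covariate, DESeq2 1.42.0 and only the groups compared. Leaving out the 2 slices low in vascular transcripts and the 6 slices high in choroid plexus markers was chosen after seeing the data. Every labelled batch held 1 treatment, and 5 of 8 held both genotypes.

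The members and the gene lists were chosen with earlier results of these data known. All 40 members were accounted for, and values in every mouse were given for members called in at least 3 of 4 stimulation or 2 of 4 genotype comparisons and for the reference markers Cldn5, Pecam1, Cdh5, Pdgfrb, Rgs5 and Acta2. From the further lists a gene was named when called in at least 2 of 4 stimulation or 2 of 4 genotype comparisons, at most 4 per list and direction, by mean absolute log2 fold change.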

Additional observations from a re-analysis of the deposited data

Results flagged for a closer look

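Acta2, smooth muscle actin, stood at 5.01 CPM in the stimulated slice of T41B BD10-2 Mouse1570, while the other 4 stimulated slices of that group lay between 1.56 and 2.26 CPM. The gap to the nearest other value was 0.796 of the group's range, above the Dixon limit of 0.71 for 5 samples. This was 1 of 96 groups checked over 16 members, and chance alone marks about 1 in 20 groups. The sham slice of the same mouse was at 5.36 CPM, the highest of its group.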

How the results depend on the processing

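Of the 142 called values of single genes (members and named genes of the further lists, stimulation and genotype), 1442 of 1681 alternative values kept the direction and the call, 239 kept the direction and lost the call, and 0 reversed. Of the 354 values that were not called, 91 of 4621 alternative values passed, and 350 changed sign with neither value past the threshold. The cause was not tested for any of these except where fewer mice entered. Counts of called members moved as follows. For stimulation in wild-type vehicle mice 14 became 9 with only the groups compared and 9 to 12 when leaving out 1 mouse, while the share of all genes called went from 12.3% to 8.99% and to 6.38% to 8.84%. In wild-type BD10-2 mice 9 became 16 with only the groups compared and 4 to 8 when leaving out 1 mouse, and that share went from 8.87% to 11.4% and to 3.82% to 6.58%. For genotype in sham vehicle slices 0 became 0 to 1 when leaving out 1 mouse (all genes 6.24%, and 2.86% to 10.6% leaving out 1 mouse). In stimulated vehicle slices 2 became 9 with batch as a covariate, 0 with only the groups compared, 4 with DESeq2, 1 without the 2 low slices, 5 without the 6 choroid-high slices and 0 to 6 when leaving out 1 mouse. The share of all genes called there was 5.79%, and in the same order 3.92%, 4.57%, 6.94%, 6.74%, 1.17% and 3.49% to 6.0%. In sham BD10-2 slices 0 became 1 with batch as a covariate (all genes 5.45%, and 4.32% with batch). In stimulated BD10-2 slices 4 became 2 with the deeper libraries, 1 with batch as a covariate and 1 to 4 when leaving out 1 mouse. The share of all genes called there was 10.6%, and in the same order 11.8%, 9.13% and 5.32% to 12.6%. In the paired analysis, with the mouse as a replicate block, 18, 15, 9 and 17 members were called after stimulation (wild-type vehicle, T41B vehicle, wild-type BD10-2, T41B BD10-2), against 20.1%, 29.5%, 6.6% and 23.9% of all genes in that fit (12.3%, 21.5%, 8.87% and 22.9% without the block), and 0 in the 4 interactions, and among the members the block changed no call other than those given beside their genes. DESeq2 called 5 higher and 6 lower in wild-type BD10-2 mice, against 7.09% and 3.67% of all genes. The main fit called 5 and 4, against 6.29% and 2.58%. Depth limits the low genes: Esm1 could not be tested.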

Other observations

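Markers of other cell types in the slices were counted in the 4 stimulation comparisons, in which 8.21%, 11.7%, 6.29% and 13.3% of all genes were called higher and 4.1%, 9.83%, 2.58% and 9.52% lower (wild-type vehicle, T41B vehicle, wild-type BD10-2, T41B BD10-2). Ependymal markers, of the ciliated lining of the ventricles, fell in T41B vehicle mice for 4 of 5 and in 0 of 5 in the other 3 comparisons. Meningeal fibroblast markers fell for 2 of the 9 tested in T41B vehicle, wild-type BD10-2 and T41B BD10-2 mice and for 0 of 9 in wild-type vehicle mice, with summed levels of 20.3 to 88.7 CPM over all slices. Red blood cell markers, which report blood left in the vessels, summed to 65.8 to 192 CPM, and 0 of 5 were called in any stimulation or genotype comparison by edgeR. Markers of thalamus, a neighbouring region, summed to 88.6 to 140.0 CPM, with 1 of 3 called higher after stimulation in T41B vehicle mice. Hippocampal neuron markers fell for 0, 1, 1 and 1 of 5. These differences between comparisons were not tested.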
